A study of Mus musculus with 13 samples.

Results

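The Gimap genes (GTPase of the immunity-associated protein) code for a family of small GTPases, and the 8 genes of the family listed in the table, Gimap1, Gimap3, Gimap4, Gimap5, Gimap6, Gimap7, Gimap8 and Gimap9, were taken by gene symbol from the 43629 genes measured in 13 mouse RNA sequencing libraries. The libraries came from 3 wild-type (WT) thymuses of C57BL/6 mice, from 5 thymic lymphomas of Atm-/- mice, which lack the DNA damage kinase ATM and were of the 129S6/SvEv strain, and from 5 thymic lymphomas of Rag2c/c p53-/- mice. The last lack p53, carry a RAG2 recombinase subunit cut short at its C-terminus and had a background that mixed C57BL/6 with 129S6/SvEv. Each library was made from polyA RNA of a cell suspension from a different mouse, and age was not among the labels. The WT thymuses were re-used from another series, so strain and series cannot be told apart from the lymphoma effect in any comparison with WT, nor can strain be told apart from genotype between the lymphomas.

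GIMAP proteins carry a GTP-binding AIG1 domain and sit on membranes of the endoplasmic reticulum, Golgi, lysosomes, lipid droplets or mitochondria of lymphocytes. They are best known for keeping lymphocytes alive: rats and mice without functional Gimap5 lose peripheral T cells, and Gimap1 is needed for mature T and B cells. The level of several members changes as thymocytes pass from the CD4-CD8- through the CD4+CD8+ to the mature stages.

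All 8 genes lay in a single cluster of 119.3 kb on mouse chromosome 6 (GRCm38, chr6:48647234-48766519) in the order Gimap8, Gimap9, Gimap4, Gimap6, Gimap7, Gimap1, Gimap5 and Gimap3. Gimap6 and Gimap3 are on the minus strand and the others on the plus strand. The sequence before the start of transcription is shown for the gene with the lowest levels in both lymphoma groups per length (Gimap3), for the gene that separated the lymphoma groups most (Gimap4) and for the gene that passed no test (Gimap9). The 250 bases before the RefSeq start (GRCm38.p6) are given on the strand of the gene, with the letters AGGAAG or CTTCCT, found in sites of ETS factors, and TGTGGT or ACCACA, found in sites of RUNX factors, in capitals. They are at chr6:48770852-48771101 on the minus strand for Gimap3, chr6:48684328-48684577 on the plus strand for Gimap4 and chr6:48675885-48676134 on the plus strand for Gimap9.
Gimap3: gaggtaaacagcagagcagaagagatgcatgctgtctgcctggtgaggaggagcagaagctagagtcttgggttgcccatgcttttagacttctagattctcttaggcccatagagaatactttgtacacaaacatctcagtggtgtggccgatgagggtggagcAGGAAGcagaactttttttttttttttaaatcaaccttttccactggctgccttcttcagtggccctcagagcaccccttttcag
Gimap4: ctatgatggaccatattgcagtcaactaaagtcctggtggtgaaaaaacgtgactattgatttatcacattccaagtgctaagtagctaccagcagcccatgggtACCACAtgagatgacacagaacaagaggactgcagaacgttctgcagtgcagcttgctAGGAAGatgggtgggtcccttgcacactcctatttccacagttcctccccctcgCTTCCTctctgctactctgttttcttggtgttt
Gimap9: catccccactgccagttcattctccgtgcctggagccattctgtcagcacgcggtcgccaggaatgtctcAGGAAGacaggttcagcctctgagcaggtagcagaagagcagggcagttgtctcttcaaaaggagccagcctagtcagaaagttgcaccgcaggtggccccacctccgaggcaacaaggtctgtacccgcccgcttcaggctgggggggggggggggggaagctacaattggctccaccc
The ETS letters stood in such a window of 7 of the 8 members, all but Gimap6, and in 29.5% of 32851 RefSeq promoter windows of the same length, and the RUNX letters stood in 3 of 8 (Gimap1, Gimap4 and Gimap7) and 14.0% of windows. Gimap8 has a pair of annotated starts and counted once if either window held the letters. The ETS letters stood in only 1 of its windows, while the shares are per single window. Other short motifs were found in fewer members or as often as elsewhere: the KLF letters CACCC in 5 of 8 against 52.0% of windows, the FOXO letters TGTTTAC in Gimap3 alone against 3.2%, and the TCF/LEF letters CTTTGA and the GATA letters AGATAA in 0 of 8 against 13.8% and 9.99%. Both strands were searched for each. These matches describe letters in a window and do not show that a factor binds there.

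Values are the authors' normalized counts, read counts scaled by the library's size factor, then rounded. Column totals lay between 19788898 and 21591289 for all libraries, and the depth estimated from the steps between low values was 6.67 to 39.19 M reads for WT, 9.23 to 23.64 M for Atm-/- and 6.37 to 24.77 M for Rag2c/c p53-/- lymphomas. The estimate of 39.19 M, of WT thymus 1, sat at the smallest step searched, so the depth of that library may be higher. As a check of the labels, Atm was listed at 1559 to 2274 in WT, 208 to 732 in Atm-/- and 439 to 1315 in Rag2c/c p53-/- libraries, and Trp53 at 4387 to 6341, 6853 to 11318 and 2018 to 5461. Atm overlapped between the lymphoma groups, and Trp53 overlapped between WT and Rag2c/c p53-/- libraries, so these levels do not settle the labels. Whether the altered part of each gene lies within the counted exons was not checked. T cell markers (8 genes of the CD3 complex and others) summed to 75432 to 117239 in WT, 63872 to 114137 in Atm-/- and 59670 to 113629 in Rag2c/c p53-/- libraries, and no marker was at 0 in every library of a group.

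In the WT thymuses every Gimap gene was expressed, and the thymuses resembled each other closely. Per kilobase of exon, Gimap6 stood highest at 2063 ± 127 normalized counts (SD, n = 3), followed by Gimap9 at 1867 ± 111 and Gimap4 at 1818 ± 33.0, and the ranges of neighbours among these overlapped. Gimap8 (1141 ± 88.0) and Gimap3 (1126 ± 41.1) came next with overlapping ranges, then Gimap1 (680 ± 10.9), and Gimap5 (163 ± 11.5) and Gimap7 (141 ± 17.2) were lowest and overlapped. This order was not that of the lymphomas. Gimap9 headed it in Atm-/- lymphomas at 1802 ± 478 normalized counts per kb (SD, n = 5) and in Rag2c/c p53-/- lymphomas at 1293 ± 411, where its lowest library (831) exceeded the highest library of the next gene, Gimap1 (434). Gimap3, above Gimap1, Gimap5 and Gimap7 in WT, was last in both lymphoma groups at 34.7 ± 30.4 and 28.9 ± 13.8 per kb.

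The question of the comparison with WT is what the lymphomas, which arise in the thymus, retained of the family's expression in normal thymus. A gene was called changed at an adjusted p under 0.05 and at least a 2-fold difference (a log2 difference of 1) in limma fitted to log2(value + 1), with p-values adjusted over all 15872 tested genes by the Benjamini-Hochberg method. All 8 members passed the filter on low values. In Atm-/- lymphomas, 3 of the 8 (Gimap3, Gimap8 and Gimap6) were lower than in WT and 0 were higher, beside 17.0% of all tested genes called lower and 12.6% called higher. The median log2 difference over the 8 was -1.01, beside -0.02 over all tested genes. In Rag2c/c p53-/- lymphomas, 7 of the 8, all but Gimap9, were lower and 0 higher, beside 13.9% of all tested genes lower and 9.77% higher, and the median was -3.16, beside -0.02. Every lymphoma was below every thymus for 4 of the 8 in Atm-/- lymphomas, beside 27.9% of all tested genes, and for 7 of the 8 in Rag2c/c p53-/- lymphomas, beside 24.2%. Both comparisons use the same 3 WT thymuses. In bulk libraries, fewer cells of a type and less RNA per cell cannot be told apart.

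**Figure D1:**
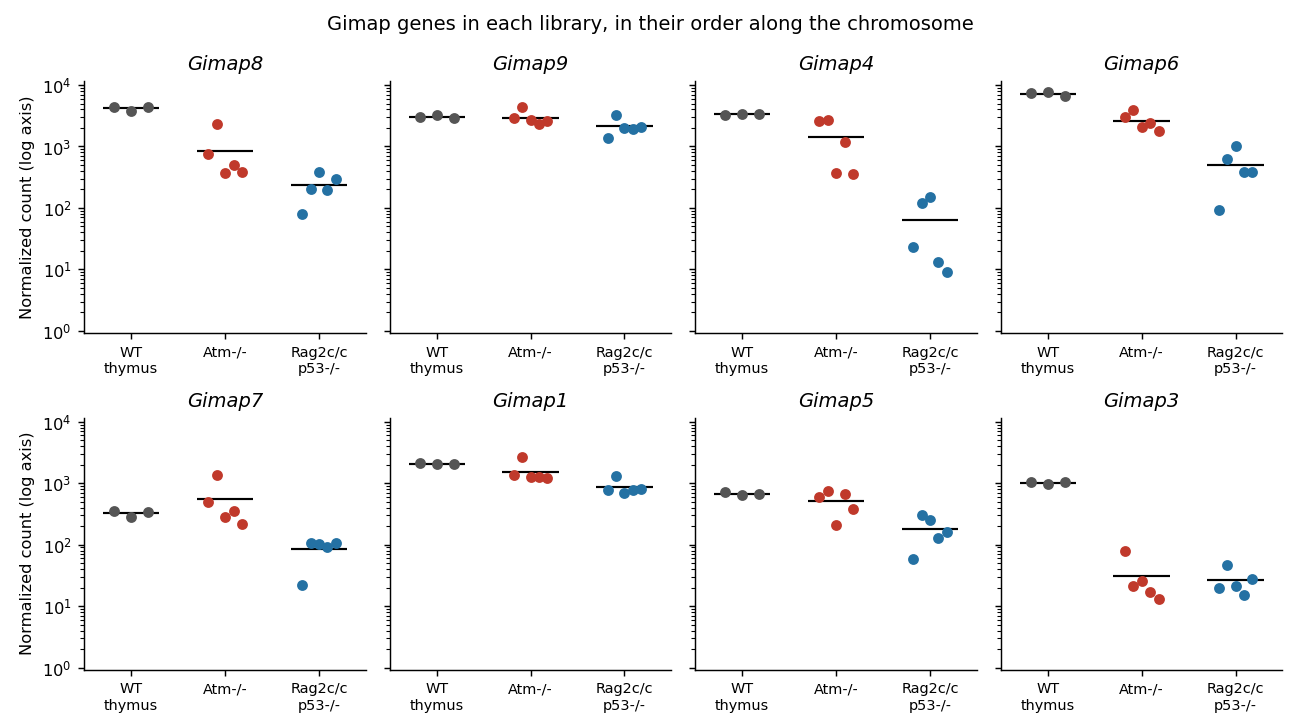
Normalized count (log axis) of the 8 Gimap genes in each of the 13 libraries, in chromosomal order, with a point per library and a line at the group mean. Gimap3 sat at 978 to 1048 in WT and at 13 to 80 in every lymphoma, Gimap4 sat at 352 to 2651 in Atm-/- and at 9 to 152 in Rag2c/c p53-/- lymphomas, and Gimap9 overlapped between all 3 groups.

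Gimap3 and Gimap4 code for proteins described as partners of Bcl2 family proteins. Gimap3, a mitochondrial member and the closest relative of Gimap5, had 1048, 978 and 1035 normalized counts in the WT thymuses, 80, 21, 26, 17 and 13 in the Atm-/- lymphomas and 20, 47, 21, 15 and 28 in the Rag2c/c p53-/- lymphomas. All 10 lymphomas were thus far below all 3 thymuses, and the lymphoma groups overlapped. The log2 difference from WT was -5.29 (SE 0.52, adjusted p = 9.11e-06) in Atm-/- and -5.34 (SE 0.52, adjusted p = 1.65e-05) in Rag2c/c p53-/- lymphomas, 39.1-fold and 40.4-fold lower on the scale of value + 1. Between the lymphomas it was 0.05, with a 95% interval from -0.92 to 1.01 and an adjusted p of 0.962. The deposited table gives Gimap3 a span of 1431 bp, shorter than the GENCODE vM21 gene. Of the 50-base exon words of the full GENCODE gene, 7.52% also occur in Gimap5, so reads of the pair may not be fully separated. The share within the shorter span was not measured.

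Gimap4, reported to modulate the pace of T cell death, had 3273, 3356 and 3391 normalized counts in WT, 2591, 2651, 371, 1192 and 352 in Atm-/- and 23, 122, 152, 13 and 9 in Rag2c/c p53-/- lymphomas. The 3 groups did not overlap at any point: all Atm-/- lymphomas were below WT and above all Rag2c/c p53-/- lymphomas. Atm-/- lymphomas 1 and 2 kept most of the WT level, whereas 3 and 5 were at 371 and 352. Against WT, the Rag2c/c p53-/- lymphomas had a log2 difference of -6.52 (SE 0.92, adjusted p = 2.07e-04, 92.0-fold lower), at rank 25 from the lowest of the 15872 tested genes. In Atm-/- lymphomas it was -1.72 with a 95% interval from -3.71 to 0.27 and did not pass the test (adjusted p = 0.145). The lowest value of 9 corresponded to about 11.1 reads and the value of 13 to about 8.8 reads, so the low Rag2c/c p53-/- values are less precise than the rest.

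Gimap5, Gimap1 and Gimap6 are members whose loss impairs lymphocytes in mice. Gimap5, a lysosomal protein, had 727, 633 and 664 normalized counts in WT, 596, 758, 205, 664 and 380 in Atm-/- and 58, 307, 249, 128 and 162 in Rag2c/c p53-/- lymphomas. The Atm-/- lymphomas overlapped with both other groups, and all Rag2c/c p53-/- lymphomas were below WT. Its log2 difference from WT was -2.10 (SE 0.50, adjusted p = 0.00559) in Rag2c/c p53-/- and -0.51 (SE 0.50, adjusted p = 0.420) in Atm-/- lymphomas.

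Gimap1, a Golgi and endoplasmic reticulum member, had 2120, 2053 and 2086 normalized counts in WT, 1339, 2640, 1261, 1237 and 1223 in Atm-/- and 785, 1331, 680, 788 and 811 in Rag2c/c p53-/- lymphomas. Atm-/- lymphoma 2 was the highest of all libraries, and the other 4 Atm-/- lymphomas were below WT. Relative to WT, the log2 difference was -1.29 (SE 0.26, adjusted p = 0.00207) in Rag2c/c p53-/- and -0.51 (SE 0.26, adjusted p = 0.126) in Atm-/- lymphomas. The antisense gene Gimap1os covers 36.1% of the exon length of Gimap1, and the strand setting of the counting is not given in the sources used here, so reads of the pair may not be separated. Gimap1os itself was listed at 611 to 738 in WT, 243 to 744 in Atm-/- and 52 to 152 in Rag2c/c p53-/- lymphomas, and was lower in Rag2c/c p53-/- lymphomas (log2 difference -2.74, adjusted p = 2.15e-04).

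Gimap6, which binds the autophagy protein GABARAPL2, had the highest count of the family in WT. It had 7370, 7553 and 6711 normalized counts in WT, 2972, 3910, 2049, 2371 and 1789 in Atm-/- and 92, 625, 1026, 388 and 384 in Rag2c/c p53-/- lymphomas. The groups were ordered WT, Atm-/- and Rag2c/c p53-/- without overlap. The log2 difference from WT was -1.52 (SE 0.55, adjusted p = 0.0384) in Atm-/- and -4.21 (SE 0.55, adjusted p = 1.22e-04) in Rag2c/c p53-/- lymphomas. The Atm-/- call was lost without WT thymus 1, 2 or 3 (adjusted p = 0.0996, 0.0976 and 0.0879) or without Atm-/- lymphoma 3, 4 or 5 (adjusted p = 0.0691, 0.0625 and 0.0724), while the log2 difference stayed between -1.57 and -1.39 in these fits.

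Gimap7 and Gimap8 are the other members that differed between the lymphoma groups. Gimap7, a GTPase that can stimulate the GTPase activity of other members, had 358, 283 and 344 normalized counts in WT, 496, 1368, 284, 350 and 219 in Atm-/- and 22, 108, 101, 93 and 108 in Rag2c/c p53-/- lymphomas. Rag2c/c p53-/- lymphomas lay below every other library, and Atm-/- lymphomas lay on both sides of WT. The log2 difference from WT was -2.10 (SE 0.59, adjusted p = 0.0137) in Rag2c/c p53-/- lymphomas, a call lost without WT thymus 1 (adjusted p = 0.0536) or 3 (adjusted p = 0.0522). In Atm-/- lymphomas it was 0.40, with a 95% interval from -0.87 to 1.66 (adjusted p = 0.602), and -0.02 without Atm-/- lymphoma 2.

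Gimap8, a larger member with several GTPase domains, had 4411, 3846 and 4409 normalized counts in WT, 750, 2290, 364, 496 and 384 in Atm-/- and 80, 203, 385, 197 and 297 in Rag2c/c p53-/- lymphomas. All lymphomas were below WT, and the lymphoma groups touched at their edges, with a lowest Atm-/- value of 364 and a highest Rag2c/c p53-/- value of 385. The log2 difference from WT was -2.69 (SE 0.56, adjusted p = 0.00192, 6.44-fold lower) in Atm-/- and -4.35 (SE 0.56, adjusted p = 1.11e-04, 20.4-fold lower) in Rag2c/c p53-/- lymphomas.

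Gimap9 was called in none of the 3 comparisons. It had 2975, 3275 and 2946 normalized counts in WT, 2909, 4307, 2666, 2292 and 2617 in Atm-/- and 1365, 3219, 1988, 1949 and 2097 in Rag2c/c p53-/- lymphomas, and its groups overlapped. Relative to WT it differed by -0.09 on the log2 scale in Atm-/- lymphomas (95% interval -0.61 to 0.44, adjusted p = 0.796) and -0.58 in Rag2c/c p53-/- lymphomas (95% interval -1.10 to -0.06, adjusted p = 0.0741). Neither interval reached the 6.44-fold or 20.4-fold lower levels of Gimap8, whose gene ends 15253 bp before that of Gimap9.

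**Figure D2:**
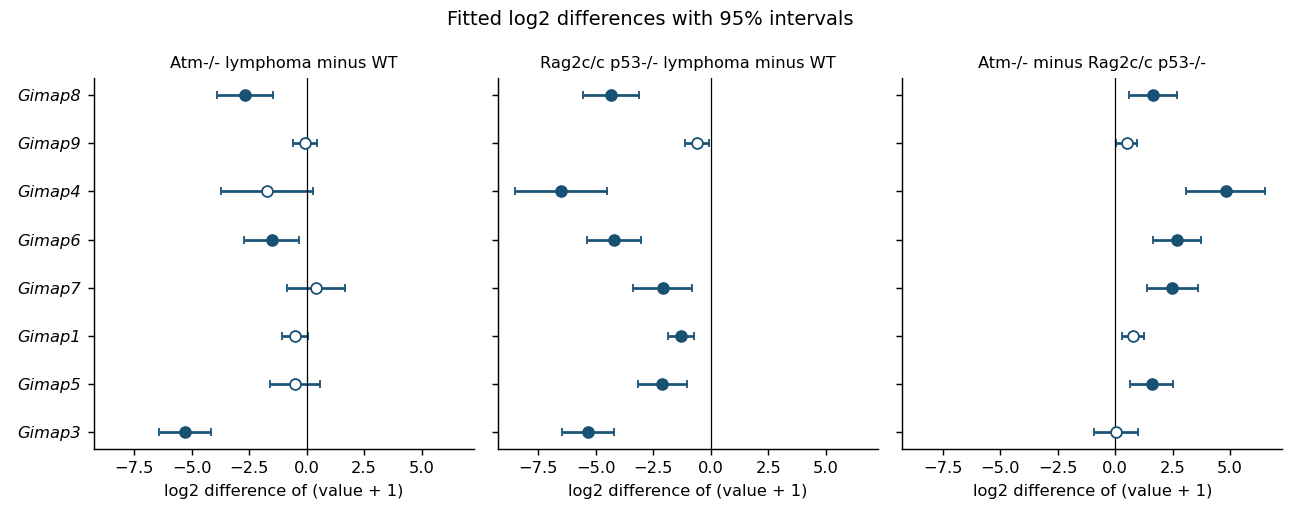
Fitted log2 difference of value + 1 (x axis) for each Gimap gene, in chromosomal order, in the 3 comparisons, with 95% intervals as bars; filled points passed the test and the 2-fold threshold. Filled points number 3 in Atm-/- against WT, 7 in Rag2c/c p53-/- against WT and 5 between the lymphomas, all at negative values in both panels against WT and at positive values between the lymphomas.

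Between the lymphoma groups, which share no library, 5 of the 8 Gimap genes were higher in Atm-/- than in Rag2c/c p53-/- lymphomas and 0 were lower, beside 3.51% of all tested genes higher and 4.33% lower. The median log2 difference over the 8 was 1.63, beside 0.02 over all tested genes. Gimap4 differed most, by a log2 difference of 4.80 (SE 0.80, adjusted p = 0.00198, 27.9-fold), followed by Gimap6 at 2.69 (SE 0.48, adjusted p = 0.00305, 6.47-fold) and Gimap7 at 2.50 (SE 0.51, adjusted p = 0.00722, 5.64-fold). Every Atm-/- lymphoma exceeded every Rag2c/c p53-/- lymphoma for these 3 genes, as it did for 3.85% of all tested genes. Gimap8 (1.66, SE 0.49, adjusted p = 0.0416) and Gimap5 (1.59, SE 0.43, adjusted p = 0.0313) passed with overlapping groups. Both calls were lost when certain single libraries were left out: Gimap5 had an adjusted p of 0.0556 to 0.0746 without Atm-/- lymphoma 1, 2 or 4 or Rag2c/c p53-/- lymphoma 1, 4 or 5, and Gimap8 one of 0.0512 to 0.0919 without those libraries, Rag2c/c p53-/- lymphoma 2 or any 1 of the WT thymuses, which enter the contrast only through the shared estimate of the spread. The log2 difference stayed above the threshold, at 1.24 to 1.89 for Gimap5 and 1.21 to 1.89 for Gimap8, with any 1 library left out. Gimap1 differed by 0.78 (SE 0.23, adjusted p = 0.0404), under the 2-fold threshold, and Gimap9 by 0.50 (SE 0.21, adjusted p = 0.149).

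Among individual lymphomas, the members moved in part together. Atm-/- lymphoma 2 had the highest value of its group for 7 of the 8 members, all but Gimap3, and Rag2c/c p53-/- lymphoma 1 had the lowest of all 13 libraries for 5. Atm-/- lymphoma 2 also had the lowest estimated depth of its group (9.23 M reads). The same held for Rag2c/c p53-/- lymphoma 2 (6.37 M), which was highest of its group for 4 members. Outside the family, Atm-/- lymphoma 2 was highest of its group for most of the T cell markers, namely Cd3e, Cd3d, Cd247, Cd2 and Thy1. It was not for Cd3g, Cd5 or Lck (23311, beside 23441 in Atm-/- lymphoma 3). The part of depth was not tested. The mean over the 8 members of the log2 value centred per gene was 1.80 to 1.89 in WT, -0.31 to 1.28 in Atm-/- and -2.48 to -0.70 in Rag2c/c p53-/- libraries. Pearson correlations of log2 values over the 10 lymphomas, after the mean of each group was removed, were above 0 for all 28 pairs of members, from 0.165 (Gimap8 and Gimap3) to 0.941 (Gimap8 and Gimap7) with a median of 0.576. The counts and correlations in this paragraph are descriptions, and the points share library depth and scaling. No share or correlation over all tested genes stands beside them, so they are not read as particular to the family. Gimap3 was the member least like the rest, with 0.165 to 0.467 to the other 7. The spread was uneven: the SD of the log2 value of Gimap4 was 1.43 among Atm-/- and 1.81 among Rag2c/c p53-/- lymphomas, higher than that of 92.5% and 95.9% of the genes compared, while that of Gimap9 was 0.35 and 0.44, near the medians over those genes of 0.40 and 0.45.

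The genes most like the family's mean were named by Pearson correlation of log2 values. Over the 13 libraries they were Gimap1os (r = 0.965), Rnf14 (r = 0.961), Zfp809 (r = 0.960), Ercc4 (r = 0.946) and Slc37a3 (r = 0.946). Over the 10 lymphomas with group means removed they were other genes, Pnpla2 (r = 0.942), Mob3a (r = 0.940), Wdr73 (r = 0.936), Snhg4 (r = 0.927) and Gm1818 (r = 0.926). Differences between groups enter the first measure and not the second.

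The genes around the cluster were compared in the same way. Of 51 genes within 1 Mb of it, members left out, 30 were tested, and 3 were higher and 5 lower in Atm-/- lymphomas than in WT, beside 12.6% higher and 17.0% lower over all tested genes, with a median log2 difference of -0.01. In Rag2c/c p53-/- lymphomas 3 were higher and 6 lower, beside 9.77% and 13.9%, with a median of -0.14. The 30 include Gimap1os, which lies inside the cluster and overlaps Gimap1. It was among those lower in Rag2c/c p53-/- lymphomas and was not called in Atm-/- lymphomas against WT. Zfp775, 24.0 kb before Gimap8, had log2 differences of -0.72 and -0.76 and was not called, and Tmem176b, 67.3 kb beyond Gimap3, had -0.34 and 0.07. Among the 5 nearest tested protein-coding genes on each side, Gm5111, a predicted gene, was listed at 58 to 71 in WT, at 0 in all Atm-/- and at 0 to 3 in Rag2c/c p53-/- lymphomas, and was called lower in both. Lrrc61 was lower in both (log2 differences -2.28 and -1.78), and Gpnmb, a glycoprotein gene of macrophages and other cells, was higher in both (2.52 and 3.13). Between the lymphomas, 3 of the 30 were higher in Atm-/- and 1 lower, beside 3.51% and 4.33% of all tested genes. Repin1, 48.2 kb before the cluster, was among the higher ones (1.51, adjusted p = 0.0481).

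**Figure D3:**
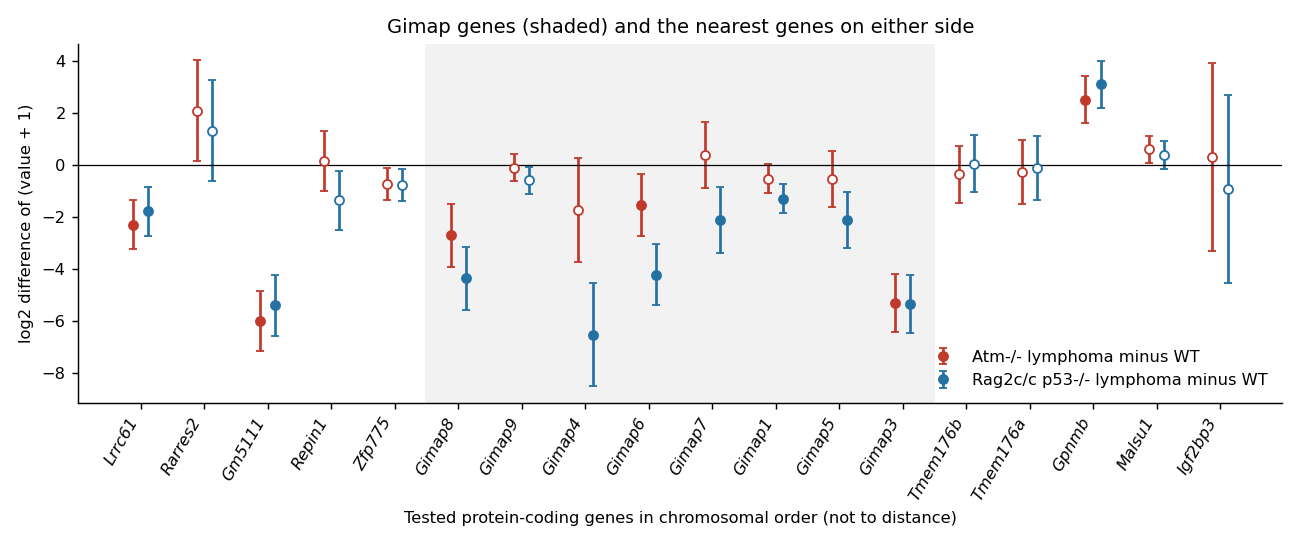
Fitted log2 difference of value + 1 from WT thymus (y axis) with 95% intervals for the Gimap genes (shaded) and the 5 nearest tested protein-coding genes on each side, placed in chromosomal order and not to distance; filled points passed the test and the 2-fold threshold. Most Gimap points lie below 0 and the nearest flanking genes, Zfp775 and Tmem176b, are open points within 0.8 of 0.

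Genes of related roles were counted in lists put together by role. Of 11 genes of mature T cells and of exit from the thymus, 4 were lower than in WT in the Atm-/- group and 6 in the Rag2c/c p53-/- group, and 0 were higher in either, beside 17.0% and 13.9% of all tested genes lower, with medians of -1.26 and -1.51. The sphingosine-phosphate receptor S1pr1, which guides exit from the thymus, was listed at 1406, 1286 and 1361 in WT, at 226, 178, 33, 75 and 27 in Atm-/- and at 19, 27, 49, 25 and 21 in Rag2c/c p53-/- lymphomas (log2 differences -4.11 and -5.61, adjusted p = 2.06e-04 and 3.64e-05). The chemokine receptor Ccr7 (-3.64 and -4.39), the early activation antigen Cd69 (-4.26 and -4.42) and the costimulatory receptor Cd28 (-2.13 and -2.11) were lower in both as well. Between the lymphomas, Il7r, the receptor chain for interleukin-7, was higher in Atm-/- by 2.52 (adjusted p = 0.0114), and the other 10 were not called, beside 3.51% of all tested genes higher. Not all of the list fell against WT. Il7r was at 2860 to 7078 in Atm-/- lymphomas, above the 1819 to 2398 of WT, but was not called (1.19, adjusted p = 0.1505). In Rag2c/c p53-/- lymphomas it differed by -1.33, also not called. The chemokine receptor Cxcr4 was higher by 0.56 and 0.50 (adjusted p = 0.0188 and 0.0385), under the 2-fold threshold.

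Of 11 genes for Bcl2 family and other partner proteins of GIMAPs, 2 were lower and 1 higher in Atm-/- lymphomas, beside 17.0% and 12.6% of all tested genes, and 2 lower and 0 higher in Rag2c/c p53-/- lymphomas, beside 13.9% and 9.77%. These shares are near those over all genes, and the genes named next are described singly. The survival gene Bcl2 was lower in both, at 2911 to 3157 in WT, 39 to 690 in Atm-/- and 98 to 303 in Rag2c/c p53-/- libraries (log2 differences -3.65 and -3.83, adjusted p = 0.00163 and 0.0016). Gabarapl1, of the autophagy family that Gimap6 binds through GABARAPL2, was lower in both (-2.43 and -1.60), and the death effector Bak1 was higher in Atm-/- lymphomas (1.14). None of the 11 was called between the lymphomas. Of 12 lymphoid transcription factors, 4 were lower in Atm-/- lymphomas and 2 lower and 1 higher in Rag2c/c p53-/- lymphomas, beside the same shares over all genes. Bach2, a repressor of effector differentiation, was lower in both (-4.97 and -5.16), as was Satb1 (-1.48 and -1.31). Bcl11b (-1.20) and Foxo1 (-1.11) were lower in Atm-/- lymphomas, and Runx3 was higher in Rag2c/c p53-/- lymphomas (1.36). None of the 12 was called between the lymphomas.

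**Figure D4:**
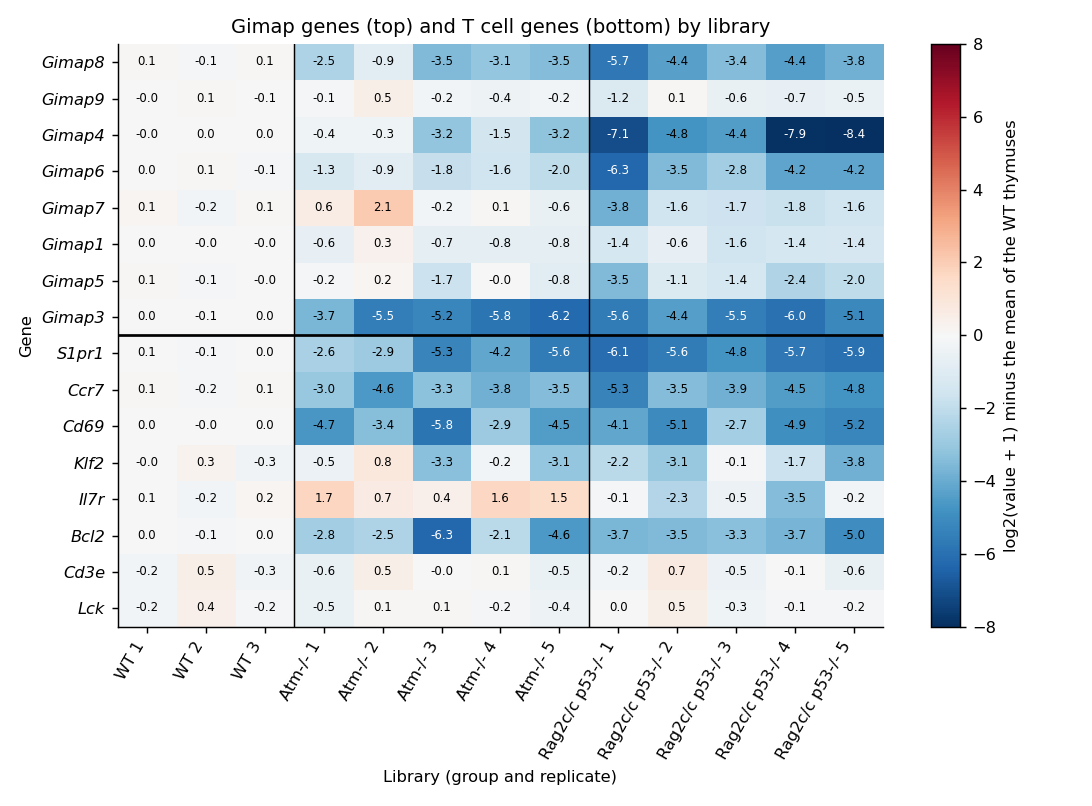
Difference of log2(value + 1) from the mean of the WT thymuses, printed and coloured, for the 8 Gimap genes (top) and 8 T cell genes (bottom) in each of the 13 libraries. Gimap3, S1pr1, Ccr7, Cd69 and Bcl2 are negative in all 10 lymphomas, Gimap4 is most negative in Rag2c/c p53-/- lymphomas, and Cd3e and Lck lie between -0.62 and 0.72 in every library.

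Markers of other cell types also differed between the groups. The counts of markers called stand beside 17.0% of all tested genes lower and 12.6% higher in Atm-/- lymphomas. In Rag2c/c p53-/- lymphomas these shares were 13.9% and 9.77%. Summed normalized counts of 6 B cell markers were 1446 to 1770 in WT, 103 to 272 in Atm-/- and 92 to 506 in Rag2c/c p53-/- libraries, with 5 and 6 of the 6 called lower. Those of 8 markers of CD4+CD8+ thymocytes were 132066 to 197030, 31547 to 74716 and 62978 to 84061, with 6 and 2 of 8 lower. Fibroblast markers (6 genes) summed to 175 to 182 in WT, 3488 to 15853 in Atm-/- and 581 to 1945 in Rag2c/c p53-/- libraries, with 4 of 6 higher in both, and myeloid markers (6 genes) to 3285 to 3606, 6125 to 10344 and 3620 to 7490, with 4 and 2 higher. Of 6 NK cell markers, 4 (Ncr1, Klrb1c, Klrk1 and Eomes) were lower and 1 (Gzma) higher in both lymphoma groups, and their sums of 1722 to 1788, 4010 to 6964 and 2192 to 9767 were mostly Gzma, which was at 1105 to 1296, 3663 to 6931 and 2067 to 9703. Of 6 thymic epithelial markers, 3 were lower in Atm-/- and 4 in Rag2c/c p53-/- libraries and 0 higher, with Psmb11 at 0 in all Atm-/- libraries and sums of 725 to 1058, 189 to 609 and 287 to 1320. In the Rag2c/c p53-/- libraries Epcam alone ranged from 22 to 875. The sums of endothelial markers were 3657 to 3776, 3467 to 6419 and 2108 to 5643. They were mostly Pecam1, which was at 3529 to 3660, 3036 to 6173 and 1809 to 5252. Of 4 tested endothelial genes, 1 (Egfl7) was higher in each lymphoma group and 2 (Cdh5 and Kdr) were lower in Rag2c/c p53-/- libraries. The sums of erythroid markers were 1109 to 2408, 934 to 6939 and 838 to 4762, with 0 of 5 tested genes called. The part of these cells in the Gimap differences was not tested. The T cell list itself had 1 of 8 genes called lower in each lymphoma group, Cd5, and 0 called between the lymphomas.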

How the data were processed

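PolyA RNA of 13 libraries was prepared with the TruSeq Stranded mRNA kit. The submitters' processing notes name bcl2fastq 1.8.3, STAR 2.4.0g1, Picard, DESeq2 1.6.3 and the builds mm10 and GRCm38. The read counter, annotation release and strand setting are not given in the sources used here. The deposited values are scores, namely counts that the authors scaled with size factors and then rounded, as the values themselves show. Further columns of the deposited table hold the authors' comparisons of each lymphoma group with WT (fold changes, p-values, dispersions) and group means, and none was used. Whole reads could not be recovered in every library, so no count test was run.

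limma 3.58.1 in R 4.3.3 modelled log2(value + 1) in all 13 libraries by group (3 groups), using trend and robust moderation. Genes entered the fit if 3 or more libraries had a value of 10 or more. Calls required a Benjamini-Hochberg adjusted p below 0.05, a log2 difference of 1 or more in either direction, and a group mean of 10 or more. Fold changes are on the log2(value + 1) scale and understate those of low genes. The fit was first tested on simulated data. A label of the WT thymuses names their source as lymphoma, while their genotype and tissue labels name wild type and thymus, and the latter were used. Lymphoma replicates were numbered in accession order. No pair of libraries was identical. Exon lengths came from GENCODE vM21, cut to the gene spans of the table. Shared 50-base words came from the GENCODE vM21 genes without that cut. Promoters came from RefSeq, in which all 8 members were matched by symbol.

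All 8 members were named, with the 5 nearest tested protein-coding genes on each side of the cluster, up to 4 called genes of each role list with the greatest log2 differences, and the 5 genes most correlated with the members' mean. Genes of the neighbourhood and lists are printed in part, and 1 gene of a role list is not reported here and was left out of its counts. The members and lists were chosen with earlier results of these data known. The alternatives covered scaling, the low-value filter, the pseudocount, the groups in the fit, moderation, the fold threshold and leaving out each library.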

Additional observations from a re-analysis of the deposited data

Results flagged for a closer look

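Some lymphomas stood far from the others of their group by Dixon's test, whose gap to the nearest library is compared with the group's range. The test was run on normalized counts and not on the log2 values of the fits. On log2 values, which were not tested, a high library stands out less. Of 22 groups of 5 tested, chance flags about 1 in 20 if values are normally distributed, which was not checked, so the number of flags is not set against chance. In Atm-/- lymphoma 2, Gimap8 (2290), Gimap7 (1368) and Gimap1 (2640) stood above the rest, and in Atm-/- lymphoma 1, Gimap3 (80) did. In Rag2c/c p53-/- lymphomas, Gimap7 in lymphoma 1 (22) stood below the rest, and Gimap1 in lymphoma 2 (1331) and S1pr1 in lymphoma 3 (49) stood above it.

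The difference from WT was not the same in the lymphoma groups, which also differ in strain, by the contrast of Atm-/- with Rag2c/c p53-/- lymphomas for Gimap8 (log2 difference 1.66), Gimap4 (4.80), Gimap6 (2.69), Gimap7 (2.50) and Gimap5 (1.59), of which Gimap8 and Gimap5 were lost in several fits with 1 library left out, and outside the family for Il7r (2.52) and Repin1 (1.51).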

How the results depend on the processing

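Each of the 24 differences of a Gimap gene in a comparison was refitted under 21 alternatives that keep the fold threshold, and 20 of the 24 had the same call in all of them. The other 4 were Gimap6 in Atm-/- lymphomas against WT, Gimap7 in Rag2c/c p53-/- lymphomas against WT, and Gimap5 and Gimap8 between the lymphomas. Besides the left-out libraries, Gimap6 was lost with neither trend nor robust moderation (adjusted p = 0.0555), Gimap5 in a fit of the 2 lymphoma groups alone (0.0702), and Gimap8 in that fit (0.0883), with neither trend nor robust moderation (0.0607) and with no filter on low values (0.0512). Between the lymphomas, the number of Gimap genes called was 3 in the fit of those 2 groups alone and 3 to 5 with 1 library left out, beside 5, and 6 without a fold threshold, which adds Gimap1 (adjusted p = 0.0404). Against WT it was 2 to 3 (Atm-/-) and 6 to 7 (Rag2c/c p53-/-) with 1 library left out. Some uncalled differences reached an adjusted p under 0.05 in such fits and stayed under the fold threshold. The lowest was 0.00907 for Gimap1 in Atm-/- lymphomas against WT. For Gimap9 it was 0.0142 in Rag2c/c p53-/- lymphomas against WT and 0.0329 between the lymphomas. Without a fold threshold 5884 genes were called in Rag2c/c p53-/- lymphomas against WT, beside 3750, since small differences then count. With 1 library left out the log2 difference of Gimap7 in Atm-/- lymphomas against WT ranged from -0.019 (without Atm-/- lymphoma 2) to 0.64, and that of Gimap3 between the lymphomas from -0.36 to 0.28, with reversed sign without Atm-/- lymphoma 1 or Rag2c/c p53-/- lymphoma 1, 3 or 4; neither was called in any fit. The causes of these shifts were not tested. No paired analysis was possible because each library came from a different mouse. Rounding and depth limit values near 10. The lowest Gimap values in the lymphomas, of 9 and 13, rest on about 9 to 13 reads. In Rag2c/c p53-/- lymphoma 2, 3 reads already give a value of about 10.13.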
